A study of Rattus norvegicus with 65 samples.

Results

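Releasing hormone genes of the growth and reproductive axes, with their partners, were followed in whole hypothalamus of 65 rats. They were Ghrh, Sst, Sstr1 and Sstr2 of the growth axis and Gnrh1, Kiss1 and Tac3 of the reproductive axis, chosen by symbol as 7 of the 38513 genes in the count table. All animals were adult male Wistar rats, 9 to 10 weeks old at the start. According to the methods of the study, the rats were fed a high-fat diet for 6 weeks before the intervention. The methods name no lean group, so the earlier diet of the animals labelled lean was not known. RYGB-treated animals (n = 14) had a Roux-en-Y gastric bypass, sham-treated animals (n = 11) a sham operation, and BWM animals (n = 7) were food-restricted so that their weight followed that of the bypass group. Saline-treated animals (n = 8) received no hormone, and the others received liraglutide, a GLP-1 receptor agonist, at 0.4 mg/kg/day (n = 5), the gut peptide PYY3-36 at 0.1 mg/kg/day (n = 4, after 1 animal had been left out by the authors), or both (n = 10). A further 6 animals were labelled lean. The text of the study names a group kept on low-fat diet only, but does not say that this is the lean group. The animals were fasted for 10 h and killed 4 weeks after the start of the intervention. The work was done in 2 experimental periods, called batch A (37 animals) and batch B (28 animals). RYGB, sham, saline and PYY3-36 + liraglutide had animals in both batches, BWM and lean in batch A alone, and liraglutide and PYY3-36 in batch B alone.

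GHRH from the arcuate nucleus drives the release of growth hormone by the pituitary, and somatostatin from the periventricular nucleus inhibits it. Sstr1 and Sstr2 encode inhibitory G protein-coupled receptors for somatostatin, which is also made by interneurons in many other brain regions. Gonadotropin-releasing hormone, encoded by Gnrh1, drives the release of luteinizing and follicle-stimulating hormone, and its neurons are few and scattered through the preoptic area and the nearby basal forebrain. Kisspeptin, encoded by Kiss1, excites these neurons. Neurons of the arcuate nucleus known as KNDy cells make kisspeptin together with neurokinin B, encoded by Tac3 in this annotation, and dynorphin. Both axes are known to respond to food restriction.

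The 7 genes lie on 7 different chromosomes of the rat assembly Rnor_6.0. On the growth axis these were Ghrh on chromosome 3 (gene10226, 153449124 to 153468794, minus strand), Sst on chromosome 11 (gene26483, 80358172 to 80359449, plus strand), Sstr1 on chromosome 6 (gene16089, 79252914 to 79258611, plus strand) and Sstr2 on chromosome 10 (gene25304, 102136283 to 102143449, plus strand). On the reproductive axis they were Gnrh1 on chromosome 15 (gene31171, 44441856 to 44446064, plus strand), Kiss1 on chromosome 13 (gene28072, 50529506 to 50537603, minus strand) and Tac3 on chromosome 7 (gene18339, 71023976 to 71030582, plus strand). Counts were summed over the exons of each gene. Fractional counts, which arise where a read has several places or several genes, were found for Sst in 42 libraries, Kiss1 in 19 and Sstr1 in 4, so the split of those reads is uncertain. For the other 4 genes every count was whole.

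The upstream sequences of both pairs of genes that varied together between animals, described further on, are shown here. They are the 250 bases before the annotated start in RefSeq on the assembly GRCr8, printed 5′ to 3′ along the gene, with capitals for matches to the searched motifs on either strand, so that TGACG on the other strand reads CGTCA and CCAAT reads ATTGG. The strand named is that of GRCr8. Ghrh is at chr3:166431881-166432130 (minus strand), Kiss1 at chr13:47326909-47327158 (plus strand), Sstr1 at chr6:81567233-81567482 (plus strand) and Sstr2 at chr10:99163103-99163352 (plus strand).
Ghrh: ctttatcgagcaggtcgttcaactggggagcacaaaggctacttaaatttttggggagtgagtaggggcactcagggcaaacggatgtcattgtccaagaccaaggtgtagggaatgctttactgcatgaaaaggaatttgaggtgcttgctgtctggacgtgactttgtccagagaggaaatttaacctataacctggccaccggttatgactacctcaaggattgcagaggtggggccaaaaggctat
Kiss1: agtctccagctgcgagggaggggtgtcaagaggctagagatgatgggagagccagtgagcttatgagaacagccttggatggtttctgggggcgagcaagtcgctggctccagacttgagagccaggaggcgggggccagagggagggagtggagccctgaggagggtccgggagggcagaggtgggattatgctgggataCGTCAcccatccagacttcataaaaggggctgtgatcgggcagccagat
Sstr1: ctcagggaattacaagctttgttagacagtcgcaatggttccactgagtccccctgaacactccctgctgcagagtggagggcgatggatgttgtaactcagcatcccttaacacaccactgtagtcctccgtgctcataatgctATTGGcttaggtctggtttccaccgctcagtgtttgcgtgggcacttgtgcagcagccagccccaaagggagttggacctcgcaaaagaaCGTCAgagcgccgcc
Sstr2: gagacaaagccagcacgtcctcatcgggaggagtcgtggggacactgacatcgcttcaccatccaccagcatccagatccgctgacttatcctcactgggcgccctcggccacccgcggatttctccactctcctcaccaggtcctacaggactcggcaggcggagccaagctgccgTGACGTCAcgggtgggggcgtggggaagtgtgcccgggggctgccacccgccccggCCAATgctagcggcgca
The motifs were the cAMP response element TGACGTCA, its first part TGACG, which lies inside the full element, the TATA box TATAAA, the CCAAT box and the homeodomain core TAATTA. Sstr2 held 1 full cAMP response element, which 1.59% of 33469 promoters of this length hold. Kiss1 and Sstr1 held 1 TGACG each, found in 18.2% of promoters. Sstr1 and Sstr2 held 1 CCAAT box each (34.0% of promoters). Ghrh held none of the 5 motifs, and TATAAA (12.9%) and TAATTA (4.86%) were in none of these 4 sequences. Guanine and cytosine made up 48.0% of the Ghrh sequence, 60.4% of Kiss1, 54.4% of Sstr1 and 66.4% of Sstr2. A match is a description of letters and not a binding site.

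Levels are given as TMM-scaled CPM, the counts on a gene relative to the size of the library, where the TMM factor corrects for differences in RNA composition between libraries. Per kilobase of exon, the median level over the 65 libraries was 261 CPM for Sst, 37.6 for Tac3, 7.18 for Gnrh1, 4.28 for Sstr2, 3.98 for Sstr1, 3.04 for Ghrh and 0.873 for Kiss1. Sst was thus the most abundant of the 7 transcripts and Kiss1 the least. The library counts on genes ran from 20041010 to 36539941 (median 27379945), which gave between 1587 and 11765 counts of Sst but between 3 and 406 of Ghrh, 9 and 517 of Gnrh1, and 0 and 156 of Kiss1. Kiss1 was at 0 in 10 libraries, where a count of 0 allows a level of up to 0.0917 to 0.145 CPM before scaling, depending on depth. This limit covers counting error only. The highest library was 6.20 times the lowest for Sst, 6.68 times for Sstr2, 8.90 times for Sstr1 and 12.5 times for Tac3, but 50.5 times for Gnrh1 and 108 times for Ghrh.

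Markers of hypothalamic nuclei were present, at levels that differed widely between dissections. The summed level of Agrp, Npy, Pomc, Cartpt and Tbx3 of the arcuate nucleus ran from 24.2 to 2640 CPM, where Pomc, which the pituitary expresses too, alone reached 2340 and 2170 CPM in 2 BWM animals, and that of Oxt, Avp, Crh, Trh, Sim1 and Otp of the periventricular and paraventricular nuclei from 6.80 to 5880 CPM. Otp was at 0 in 5 libraries, Fezf1 of the ventromedial nucleus in 2 and Nr5a1 in 1. The markers of pituitary were highest in BWM replicate 5, in which Gh1, encoding growth hormone, reached 62700 CPM, against 492 CPM in the next BWM animal, 317 CPM in a PYY3-36-treated animal and a median of 0.0961 CPM over all libraries. The summed level of the 8 pituitary markers also reached 497 CPM in RYGB-, 489 in saline-, 468 in sham- and 428 CPM in PYY3-36-treated animals. In RYGB vs. sham some lists of regions beside the hypothalamus lay to 1 side of 0, among them thalamus and basal forebrain, given further on. Others were mixed, with 2 markers above and 4 below 0 for cortex and 2 above and 3 below for habenula. All 6 striatal markers, among them Drd1, Drd2 and Adora2a, were below 0 with a median of -1.25 and 0 called, and the median summed level was 276 CPM in RYGB- and 371 CPM in sham-treated animals of batch A and 191 and 433 CPM in those of batch B. All 6 meningeal markers were above 0 with a median of 1.27 and 0 called, but the batches differed, with median summed levels of 217 CPM in RYGB- and 34.0 CPM in sham-treated animals of batch A and 71.3 and 79.9 CPM in those of batch B. The 5 choroid plexus markers were above 0 with a median of 1.35 and 1 called, and their median summed level was 44.6 CPM in RYGB- and 67.3 CPM in sham-treated animals of batch A and 53.7 and 40 CPM in those of batch B. Their part in the differences reported here was not tested. In whole tissue, fewer cells of a type and less RNA per cell cannot be told apart, which holds for each difference below.

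Differences between groups are log2 fold changes ± SE from 1 edgeR quasi-likelihood fit of all libraries with group and batch, and a gene was called at a Benjamini-Hochberg adjusted p under 0.05 over the 21871 genes tested, which included all 7. The question was whether bypass, food restriction or the gut hormones altered these transcripts relative to their controls. RYGB-, BWM- and lean-group values share the sham controls, and the 3 hormone groups share the saline controls. In RYGB- vs. sham-treated animals 1 of the 7 genes was called, where 13% of all genes tested were called. In BWM animals vs. sham 0 of 7 were called against 0.320% of all genes, and in RYGB vs. BWM 0 of 7 against 0.343%. Compared with saline, 0 of 7 were called for PYY3-36 + liraglutide (0.00457% of genes) and 0 of 7 for sham (0.0137%). Lean vs. sham, liraglutide vs. saline and PYY3-36 vs. saline gave 0 calls of 7 and 0% of all genes. At an unadjusted p under 0.05, edgeR found 2674 genes in lean vs. sham, 456 in liraglutide vs. saline and 1649 in PYY3-36 vs. saline, and DESeq2 called 29, 3 and 4 genes there at an adjusted p under 0.05. Among the 7 genes the number at an unadjusted p under 0.05 was 0 in BWM vs. sham, 1 in lean vs. sham, 2 in RYGB vs. BWM, 1 with liraglutide, 3 with PYY3-36, 1 with both hormones and 1 in sham vs. saline, and DESeq2 called 0 of 7 in each of these 7 comparisons.

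**Figure D1:**
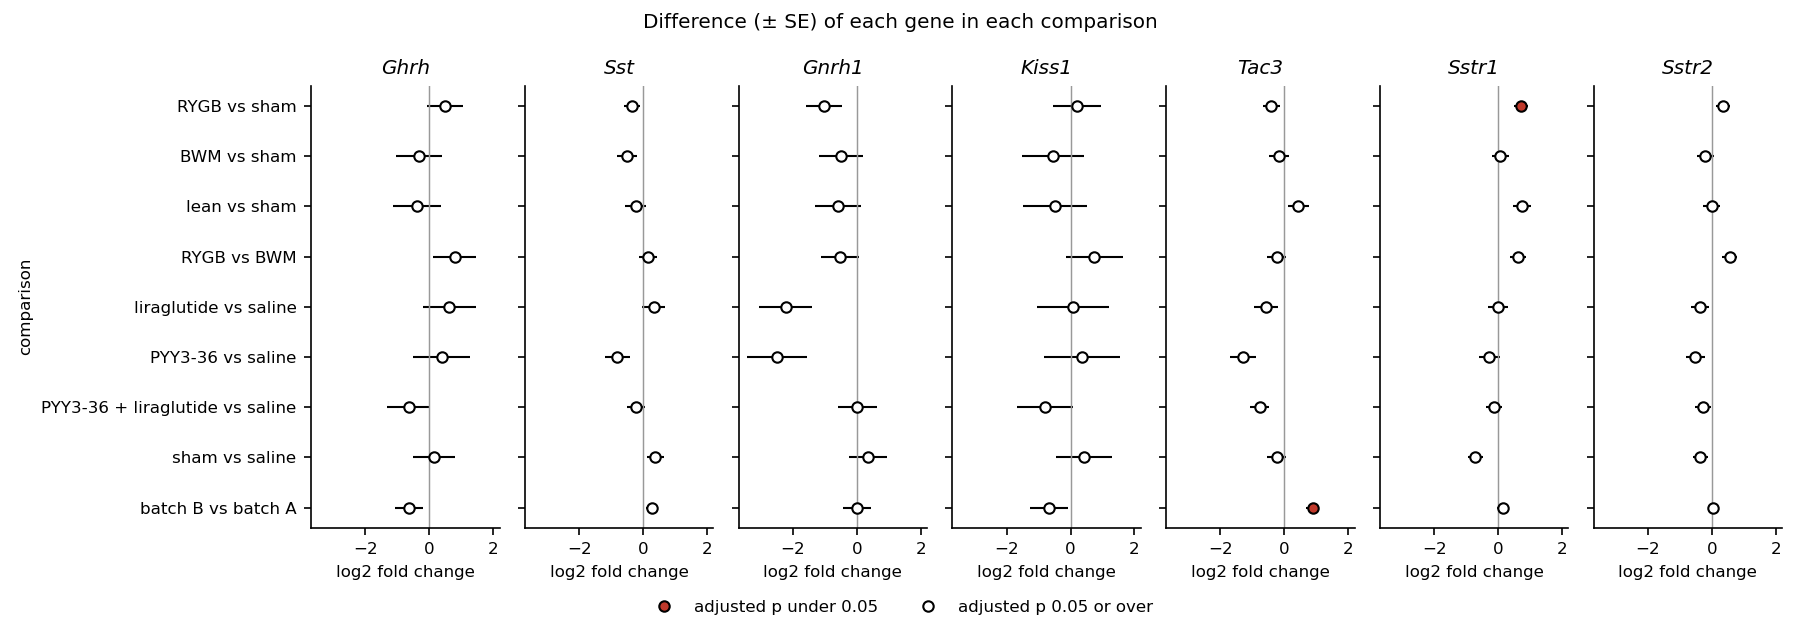
Log2 fold change with its SE (x axis) of each of the 7 genes in each comparison between groups and between batches (y axis), from edgeR. Filled points passed an adjusted p under 0.05, which held for Sstr1 in RYGB vs. sham and Tac3 in batch B vs. batch A alone, and the longest error bars belong to Kiss1, Ghrh and Gnrh1.

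Ghrh varied more within groups than between them. In batch A the level ran from 0.430 to 10.4 CPM (median 3.65) in 11 RYGB-treated animals, and was 0.849, 0.297, 8.36, 6.52 and 3.20 CPM in the 5 sham-treated animals. BWM animals of the same batch ran from 0.389 to 9.21 CPM (median 2.21) and lean animals from 0.101 to 8.71 CPM (median 2.45). All 4 ranges overlapped. In batch B the RYGB-treated animals had 7.29, 5.29 and 8.27 CPM, above 5 of the 6 sham-treated animals, which ran from 0.439 to 8.75 CPM (median 1.78). Over both batches the difference was 0.48 ± 0.56 (edgeR, adjusted p = 0.597), 0.15 in batch A alone and 1.39 in batch B alone, and the difference between the batches was not called (1.23 ± 1.13, edgeR adjusted p = 0.767). The saline-treated animals were split by batch, with 10.9, 10.01 and 0.980 CPM in batch A and 0.905, 0.483, 1.27, 0.266 and 1.49 CPM in batch B. Liraglutide-treated animals had 10.7, 4.81, 1.09, 0.445 and 1.17 CPM and PYY3-36-treated animals 5.88, 0.617, 4.22 and 1.598 CPM. The SE of 0.84 and 0.89 of the differences of these hormone groups from saline (0.63 and 0.39) exceeded the differences.

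Sst, encoding the inhibitor of growth hormone release, was high in every library. In batch A the median fell in the order sham (191 CPM), lean (176), saline (174), RYGB (169), PYY3-36 + liraglutide (131) and BWM (87.1), and the ranges of all neighbours in this order overlapped. BWM animals covered 67.1 to 290 CPM, so that their difference from sham was -0.50 ± 0.31 (edgeR, adjusted p = 0.534). RYGB-treated animals differed from sham by -0.34 ± 0.25 (edgeR, adjusted p = 0.376), with -0.19 in batch A alone and -0.64 in batch B alone. In batch B the PYY3-36-treated animals had 116, 75.3, 116 and 124 CPM, the lowest of the 6 groups there and the only group whose range did not overlap that of its neighbour in the order, PYY3-36 + liraglutide (132 to 226 CPM). Liraglutide-treated animals had 142, 251, 225, 171 and 397 CPM. Saline-treated animals of batch B had 299, 200, 125, 82.9 and 229 CPM and overlapped with the PYY3-36 group, and the difference was -0.81 ± 0.39 (p = 0.0413, edgeR adjusted p = 0.652). Against the sham-treated animals of batch B, which ran from 144 to 367 CPM (median 249), the PYY3-36-treated animals did not overlap, and Sst was lower by -1.20 ± 0.38 (edgeR, adjusted p = 0.0424). This contrast of a hormone group with the operated controls called 8.35% of all genes tested, against 0% with saline as the control.

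**Figure D2:**
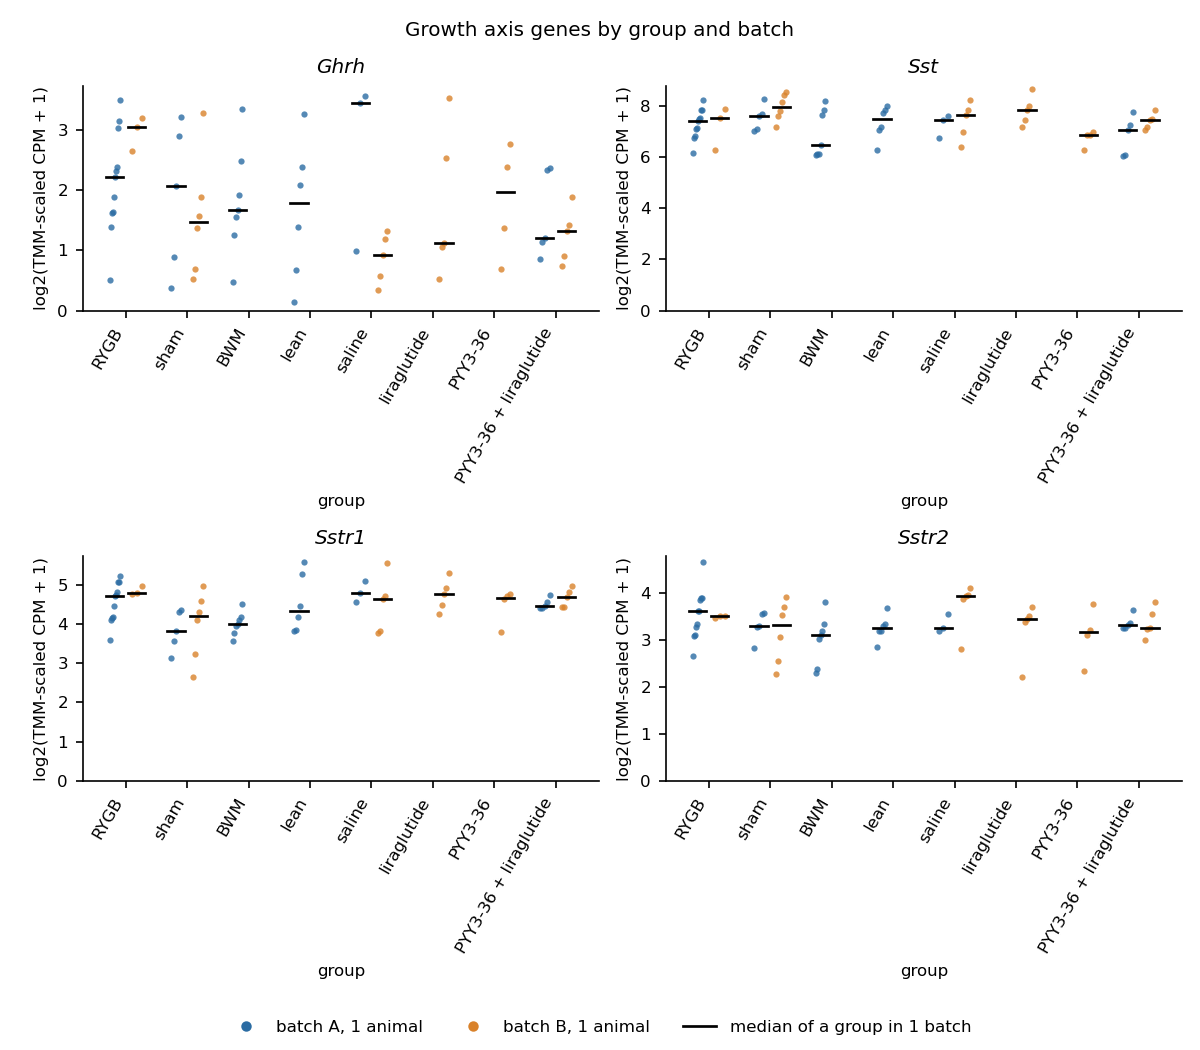
Levels of Ghrh, Sst, Sstr1 and Sstr2 as log2(TMM-scaled CPM + 1) on the y axis, by group on the x axis, with 1 point per animal coloured by batch and a bar at the median of each group in each batch. Ghrh points spread over most of the axis in most groups, Sst points of the PYY3-36 group lie between 75.3 and 124 CPM, and in Sstr1 the sham and BWM medians are the lowest of batch A.

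Sstr1 was the only one of the 7 genes called in the 8 main comparisons between groups. Its difference of RYGB from sham was above 0 (0.71 ± 0.22, edgeR adjusted p = 0.0268), a ratio of 1.64. Sst and Gnrh1 were called for PYY3-36 with sham as the control. In batch A the RYGB-treated animals ran from 11.2 to 36.4 CPM (median 25.1), and the sham-treated animals had 7.77, 19.4, 13.2, 18.6 and 10.8 CPM. Of the 11 RYGB-treated animals 7 lay above the highest sham-treated animal of that batch. In batch B the RYGB-treated animals had 26.5, 26.6 and 30.3 CPM, above 5 of the 6 sham-treated animals, which ran from 5.28 to 30.5 CPM (median 17.5). The difference was 0.78 ± 0.27 in batch A alone (edgeR, adjusted p = 0.0873) and 0.72 ± 0.39 in batch B alone (adjusted p = 0.25), and a difference between the batches was not detected (-0.07 ± 0.47, edgeR adjusted p = 0.977). The call was lost without sham replicate 5 (0.66, edgeR adjusted p = 0.0597).

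The difference depended on the control group. RYGB vs. saline gave 0.00 ± 0.24 (edgeR, adjusted p = 1.0), in a contrast that called 0.00457% of all genes tested. Sham-treated animals were lower than saline-treated animals by -0.71 ± 0.24 (p = 0.00474, edgeR adjusted p = 0.245), and in batch A the saline-treated animals (26.9, 33.1 and 22.7 CPM) lay above all 5 sham-treated animals. BWM animals had 10.9 to 21.9 CPM (median 15.0) and a difference from sham was not detected (0.07 ± 0.27, edgeR adjusted p = 0.941). RYGB vs. BWM gave 0.64 ± 0.25 (p = 0.0129, edgeR adjusted p = 0.305) and lean vs. sham 0.76 ± 0.28 (p = 0.00833, edgeR adjusted p = 0.286), with lean animals between 13.1 and 47.0 CPM. None of the hormone groups differed from saline by more than its SE (0.00 ± 0.31 for liraglutide, -0.27 ± 0.33 for PYY3-36 and -0.11 ± 0.25 for both). In batch A the median fell in the order saline (26.9 CPM), RYGB (25.1), PYY3-36 + liraglutide (21.2), lean (19.1), BWM (15.0) and sham (13.1), where all neighbours overlapped. Markers of thalamus (Prkcd, Lef1, Tcf7l2, Shox2) varied against Sstr1 between animals (r = -0.36, rho = -0.33, permutation test adjusted p = 0.0167 and 0.0387), with -0.27 without the 2 animals farthest from the median, and in RYGB vs. sham 4 of 4 were below 0 (median -0.75), although 0 were called. Their summed level ran from 39.4 to 192 CPM in RYGB- and from 25.9 to 811 CPM in sham-treated animals, and Shox2 was at 0 in 7 of the 65 libraries. In batch B the order of these levels was the other way, with 48.1 to 192 CPM in RYGB- and 37.9 to 66.8 CPM in sham-treated animals. The score of neuronal markers (Snap25, Syt1, Rbfox3, Elavl4, Nefl) rose with Sstr1 by r (0.43, rho = 0.31, permutation test adjusted p = 0.00798 and 0.0733), with 0.53 in batch A, 0.33 in batch B and 0.36 without the 2 farthest animals. In RYGB vs. sham 2 of 5 of these were above 0 (median -0.24, 0 called), with a summed level of 1160 to 6370 CPM in RYGB- and 2010 to 5120 CPM in sham-treated animals. The part of either list in the difference was not tested.

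Sstr2, the other somatostatin receptor gene of the 7, was not called in any comparison. In batch A the highest median was that of RYGB-treated animals (11.2 CPM, range 5.33 to 24.1) and the lowest that of BWM animals (7.54 CPM, range 3.88 to 13), with sham at 10.9, 10.7, 8.60, 8.74 and 6.03 CPM. RYGB vs. BWM gave 0.56 ± 0.24 (p = 0.0221, edgeR adjusted p = 0.341) and RYGB vs. sham 0.35 ± 0.21 (edgeR adjusted p = 0.25). In batch B the saline-treated animals had the highest median (14.3 CPM), with 14.4, 16.1, 14.3, 13.6 and 5.97 CPM. The RYGB-treated animals there had 10.3, 10.1 and 10.4 CPM and lay within the sham range of 3.84 to 14 CPM. All neighbours in the order of both batches overlapped.

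Gnrh1, encoding the releasing hormone of the reproductive axis, had its lowest medians in the animals treated with a single gut hormone. Liraglutide-treated animals had 0.442, 1.11, 2.23, 0.841 and 1.91 CPM and PYY3-36-treated animals 0.516, 0.427, 0.861 and 2.49 CPM. Saline-treated animals of the same batch had 0.407, 6.98, 8.22, 4.97 and 5.36 CPM, so that 1 of 5 lay below the hormone groups and the other 4 above them. The difference from saline was -2.23 ± 0.84 for liraglutide (p = 0.0101, edgeR adjusted p = 1.0) and -2.50 ± 0.93 for PYY3-36 (p = 0.00926, edgeR adjusted p = 0.652), and neither was called. Animals treated with both hormones had 3.17, 7.73, 14.9, 6.71 and 1.93 CPM in batch B and 2.82, 5.90, 11.2, 2.72 and 5.21 CPM in batch A, a difference from saline of 0.02 ± 0.61 (edgeR, adjusted p = 1.0). The contrast of the combined with either single treatment was not tested. Against sham, Gnrh1 was lower with PYY3-36 (-2.85 ± 0.92, edgeR adjusted p = 0.0424), in the contrast with 8.35% of genes called, and was not called for liraglutide (-2.59 ± 0.82, edgeR adjusted p = 0.114).

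Sham-treated animals of batch B varied widely in Gnrh1, with 1.37, 15.9, 13.1, 7.92, 0.933 and 20.6 CPM, and those of batch A had 1.13, 0.462, 2.48, 10.3 and 12.1 CPM. RYGB-treated animals ran from 0.897 to 10.2 CPM (median 5.26) in batch A and had 4.16, 0.713 and 1.32 CPM in batch B. The difference from sham was -1.03 ± 0.57 (edgeR, adjusted p = 0.216). It was -0.29 in batch A alone and -2.27 in batch B alone, but the difference between the batches was not called (-1.98 ± 1.20, edgeR adjusted p = 0.592). Markers of the basal forebrain (among them Chat, Slc18a3, Slc5a7, Lhx8 and Gbx1) varied with Gnrh1 between animals (r = 0.50). All 6 of these markers were below 0 with PYY3-36 vs. saline (median -1.36) and 5 of 6 with liraglutide (median -0.59), with 0 called in either. In batch B their summed level ran from 21.3 to 143 CPM in the PYY3-36 group, 10.9 to 282 in the liraglutide group, 14.4 to 290 in the saline group and 44.8 to 169 in the sham group. Markers of the periventricular and paraventricular nuclei, which varied with Gnrh1 too (r = 0.62), were below 0 in 5 of 6 with PYY3-36 (median -0.57) and in 4 of 6 with liraglutide (median -0.19), with 0 called. Their summed level in batch B ran from 12 to 2360 CPM in the PYY3-36 group, 26.0 to 1610 in the liraglutide group and 16.4 to 5880 in the saline group. In RYGB vs. sham 4 of 6 of the periventricular and paraventricular markers were above 0 (median 0.49, 0 called). Gbx1 was at 0 in 3 of the 65 libraries and Lhx8 in 1. The part of both lists in the differences of Gnrh1 was not tested.

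**Figure D3:**
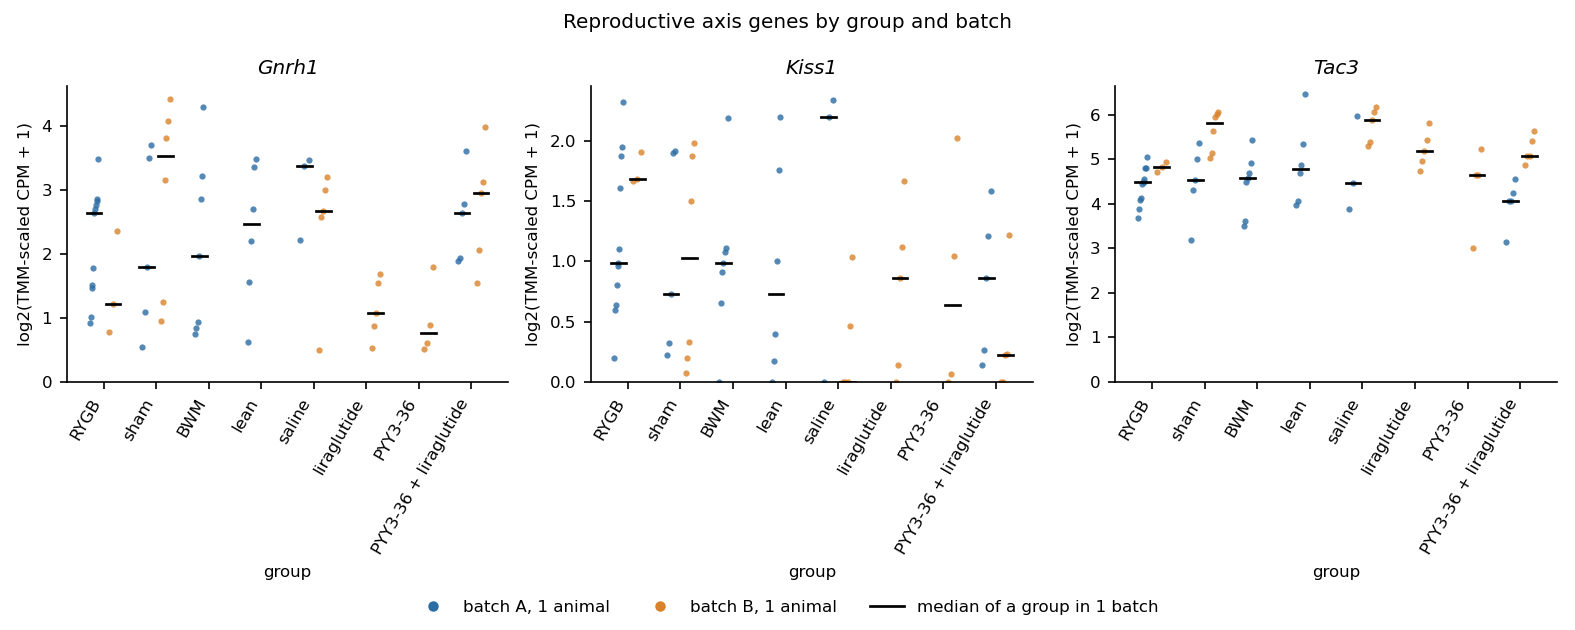
Levels of Gnrh1, Kiss1 and Tac3 as log2(TMM-scaled CPM + 1) on the y axis, by group on the x axis, with 1 point per animal coloured by batch and a bar at the median of each group in each batch. Gnrh1 points of the liraglutide and PYY3-36 groups lie at or below 2.49 CPM, many Kiss1 points lie at or near 0, and Tac3 points of batch B lie above those of batch A in saline, sham and PYY3-36 + liraglutide by median.

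Kiss1, encoding kisspeptin, was the scarcest transcript. RYGB-treated animals were above 0 in every library, with 0.143 to 3.98 CPM (median 0.984) in batch A and 2.74, 2.21 and 2.18 CPM in batch B. Sham-treated animals had 0.252, 0.165, 2.73, 2.77 and 0.654 CPM in batch A and ran from 0.0549 to 2.96 CPM (median 1.04) in batch B. The groups overlapped in both batches, and the difference was 0.20 ± 0.75 (edgeR, adjusted p = 0.887). Saline-treated animals were split by batch as for Ghrh, with 3.59, 4.05 and 0 CPM in batch A, but 1.05 and 0.381 CPM and 3 animals at 0 in batch B. BWM animals reached 3.56 CPM (median 0.978, 1 of 7 at 0) and lean animals 3.58 CPM (median 0.656, 1 of 6 at 0). The largest difference of Kiss1 in the 8 main comparisons between groups was -0.81 ± 0.88 (PYY3-36 + liraglutide vs. saline, edgeR adjusted p = 1.0). With SE between 0.75 and 1.19 in the 8 comparisons, a change by 1 on the log2 scale was not detectable for Kiss1 at this depth and spread.

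Tac3, encoding neurokinin B, was higher in batch B than in batch A (0.89 ± 0.21, edgeR adjusted p = 0.000458), a ratio of 1.85. It was the only 1 of the 7 genes called between batches, where 40.7% of all genes tested were called. The group medians were 22.0 and 55.0 CPM in sham-treated animals of batches A and B, 21.2 and 58.4 in saline-treated, 15.8 and 32.8 in PYY3-36 + liraglutide-treated, and 21.5 and 27.2 in RYGB-treated animals. In batch B the RYGB-treated animals (29.7, 27.2 and 25.2 CPM) lay below all 6 sham-treated animals (31.5 to 66.0 CPM, median 55.0), whereas in batch A the RYGB range of 11.8 to 32.2 CPM lay inside the sham values of 8.08, 22.0, 18.9, 31.2 and 40.5 CPM. The difference was -0.40 ± 0.26 over both batches (edgeR, adjusted p = 0.31), -0.88 ± 0.34 in batch B alone (adjusted p = 0.0969) and -0.19 ± 0.37 in batch A alone. The difference between batches was not called (-0.70 ± 0.56, edgeR adjusted p = 0.718). For no gene of the 7, and for 0% of all genes, was this interaction called by edgeR, with 2268 genes and 0 of the 7 at an unadjusted p under 0.05. DESeq2 was not run for it.

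Treatment with PYY3-36 gave Tac3 levels of 24.1, 7.07, 24.1 and 36.5 CPM, all below the saline-treated animals of batch B (40.9, 58.4, 38.1, 66.0 and 70.9 CPM). The difference of -1.30 ± 0.41 had the lowest unadjusted p of the 7 genes in the hormone comparisons (p = 0.00242) and an edgeR adjusted p of 0.652, or of 0.0792 within batch B alone. PYY3-36 + liraglutide gave -0.77 ± 0.29 (p = 0.011, edgeR adjusted p = 1.0) and liraglutide -0.58 ± 0.37 (edgeR adjusted p = 1.0), so that all 3 hormone groups lay below saline without a call. These 3 values share the saline-treated animals. The basal forebrain markers varied with Tac3 between animals (r = 0.46, with 0.56 in batch A and 0.27 in batch B). They were below 0 in 6 of 6 with PYY3-36 and 5 of 6 with liraglutide (medians -1.36 and -0.59). With both hormones 6 of 6 were above 0 (median 0.24). In each comparison 0 were called, and the part of these markers in the differences of Tac3 was not tested. BWM animals had 10.4 to 42.6 CPM (median 22.8) and differed from sham by -0.16 ± 0.32 (edgeR, adjusted p = 0.878).

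The 7 genes were then compared over animals treated alike, by correlating log2(CPM + 1) after subtracting the mean of each group within each batch. Of 21 pairs, 2 were called by permutation within groups with Benjamini-Hochberg adjustment. Ghrh and Kiss1 rose and fell together (r = 0.86, rho = 0.85, permutation test adjusted p = 0.00021 for both, the smallest that 100000 permutations over 21 pairs can give, n = 65). The coefficient reached 0.93 among animals of batch A and 0.73 among those of batch B, and remained at 0.85 without the 2 animals farthest from the median. Sstr1 and Sstr2 were the second pair (r = 0.55, rho = 0.57, permutation test adjusted p = 0.000315 for both), with 0.49 in batch A, 0.61 in batch B and 0.52 without the 2 farthest animals. Kiss1 and Tac3, which KNDy cells make together, showed no relation past the threshold (r = -0.20, rho = -0.18, permutation test adjusted p = 0.417 and 0.419), with -0.16 in batch A and -0.29 in batch B. Ghrh and Sst, which act against each other on the pituitary, gave r = 0.18 (rho = 0.22, permutation test adjusted p = 0.417 and 0.218). Gnrh1 and Kiss1 passed by rank alone (rho = 0.38, permutation test adjusted p = 0.0493) and not by r (0.33, adjusted p = 0.123).

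**Figure D4:**
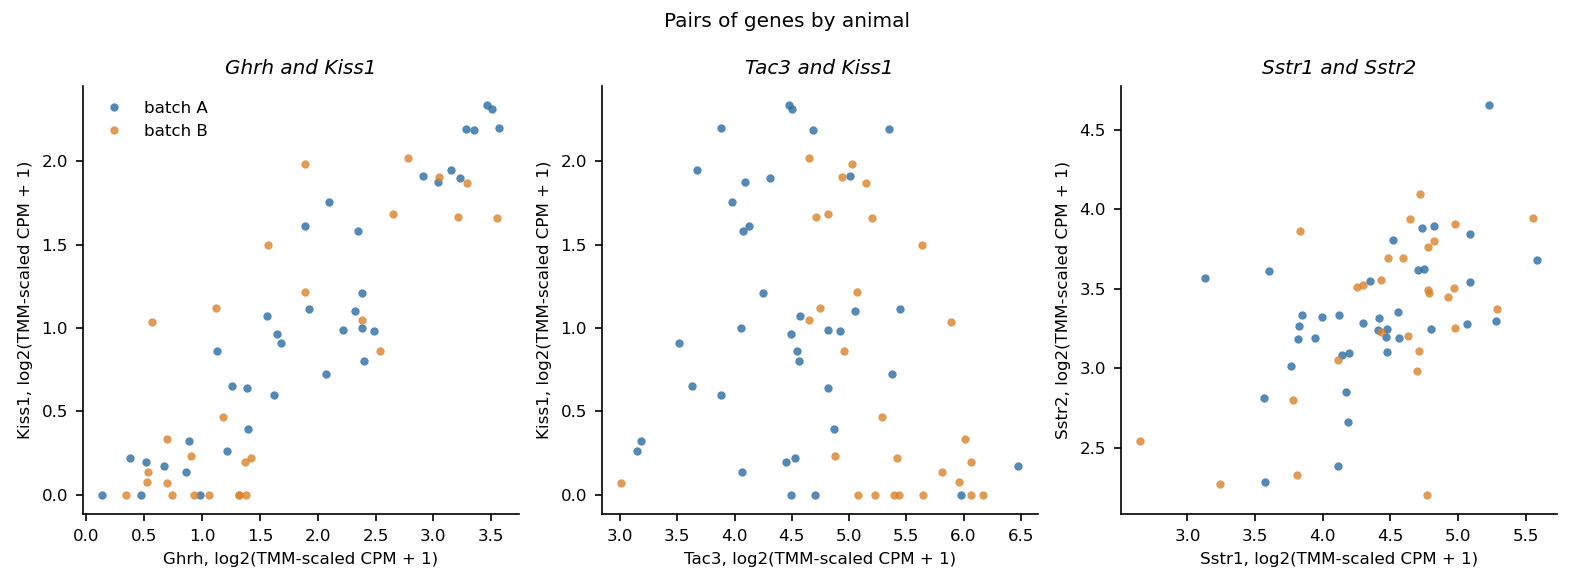
Levels of Ghrh and Kiss1, Tac3 and Kiss1, and Sstr1 and Sstr2 in the same animals as log2(TMM-scaled CPM + 1) on both axes, with 1 point per animal coloured by batch and with no group means removed. Kiss1 rises with Ghrh in both batches (r = 0.86 after removing group means), shows no such rise with Tac3 (r = -0.20), and Sstr2 rises with Sstr1 (r = 0.55).

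Single animals show what the first correlation rests on. In saline-treated animals of batch A, 2 with 10.9 and 10.01 CPM of Ghrh had 3.59 and 4.05 CPM of Kiss1, and the animal with 0.980 CPM of Ghrh had no count of Kiss1. In PYY3-36-treated animals, Ghrh of 5.88, 0.617, 4.22 and 1.598 CPM went with Kiss1 of 3.06, 0.0474, 1.07 and 0 CPM. Among lean animals the highest Ghrh (8.71 CPM) and the highest Kiss1 (3.58 CPM) were in the same animal, as were the lowest of both (0.101 and 0 CPM). Tac3 in the 2 saline-treated animals of batch A with high Kiss1 was 13.8 and 21.2 CPM, against 62.1 CPM in the animal without Kiss1.

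Regional marker scores, each the mean log2(CPM + 1) of a marker list, were set against the 7 genes in the same way, in 84 tests. Ghrh and Kiss1 followed the arcuate score (r = 0.85 and 0.84, rho = 0.84 and 0.82) and the ventromedial score of Nr5a1, Fezf1 and Nptx2 (r = 0.83 and 0.84, rho = 0.85 and 0.86), each with a permutation test adjusted p of 0.000168 for r and 0.00012 for rho. Without the 2 animals farthest from the median these r values were 0.81 to 0.85. Within batches these r values lay between 0.79 and 0.87. Both also rose with the periventricular and paraventricular score (r = 0.55 and 0.50, rho = 0.50 and 0.47) and with the pituitary score (r = 0.40 and 0.38, rho = 0.64 and 0.59), and fell as the neuronal score rose (r = -0.59 and -0.52, rho = -0.55 and -0.48) and as the cortical score rose (r = -0.45 and -0.38, rho = -0.40 and -0.35). The permutation test adjusted p of these relations lay between 0.00042 and 0.0152 for r and between 0.00012 and 0.0375 for rho. Meningeal markers passed by r alone (0.35 and 0.36). Among single genes, Ghrh and Kiss1 went with Pomc (r = 0.82 and 0.84), Agrp (0.74 and 0.77) and the growth hormone secretagogue receptor gene Ghsr (0.73 and 0.78). Of the other arcuate markers, Cartpt (0.8 and 0.69) and Tbx3 (0.73 and 0.7) went with both genes. Npy showed no such relation (-0.02 with Ghrh and -0.03 with Kiss1), so the arcuate list was not uniform. Tac3 gave -0.24 with Pomc, -0.19 with Agrp and -0.12 with Ghsr. The marker list that Tac3 followed by r was that of the cholinergic basal forebrain (r = 0.46, rho = 0.41, permutation test adjusted p = 0.00388 and 0.0129). Gnrh1 followed the periventricular and paraventricular score (r = 0.62, rho = 0.62, permutation test adjusted p = 0.000168 and 0.00012) and the basal forebrain score (r = 0.50, rho = 0.51, permutation test adjusted p = 0.000747 and 0.000653). It also rose with the ventromedial score (r = 0.38, rho = 0.39, permutation test adjusted p = 0.0157 and 0.0195). With the cortical score Gnrh1 fell (r = -0.42, rho = -0.33, permutation test adjusted p = 0.00432 and 0.0388). The neuronal score passed by r alone (-0.35, permutation test adjusted p = 0.0343). Sstr2 fell as the striatal score rose (r = -0.53, rho = -0.47, permutation test adjusted p = 0.00109 and 0.00402), with -0.35 in batch A and -0.70 in batch B. Sst followed no score upwards past the threshold. Its strongest relations by r were with habenula, thalamus and meninges (r = -0.34 each, permutation test adjusted p = 0.0274, 0.0404 and 0.0458). By rank habenula alone of these passed (rho = -0.48, permutation test adjusted p = 0.00151, against 0.0817 for thalamus and 0.189 for meninges). The ventromedial score of each library, chosen after seeing the data, was also entered into the fit beside group and batch. The SE of Ghrh in RYGB vs. sham fell from 0.56 to 0.34 and its difference went from 0.48 to -0.10, with no call either way. Ghrh varied with this score in the same libraries (r = 0.83), so the smaller SE is not separate evidence. The part of the score in the difference was not tested. With this covariate Sstr1 in RYGB vs. sham was 0.63 ± 0.22 (edgeR, adjusted p = 0.0623).

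**Figure D5:**
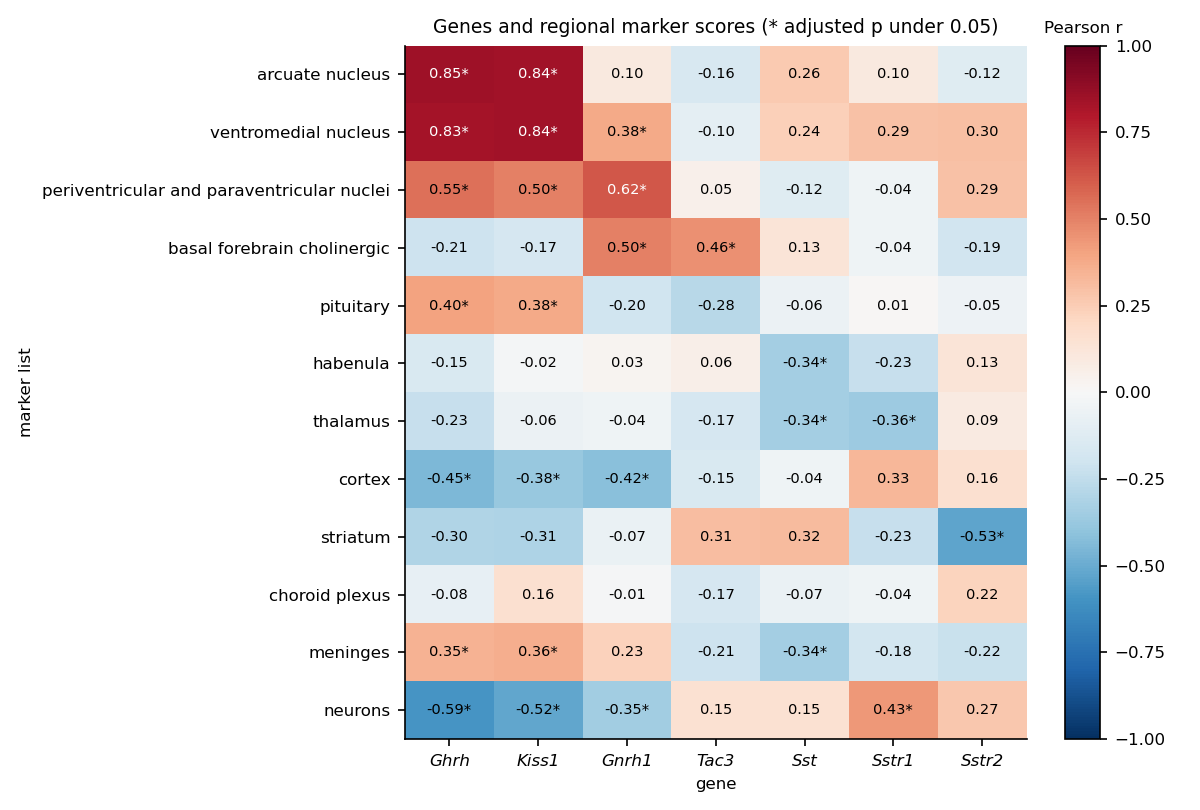
Pearson r over 65 animals between each of the 7 genes (x axis) and 12 regional or cell marker scores (y axis) after removing the mean of each group within each batch, with the value printed in each field and an asterisk at an adjusted p under 0.05. Ghrh and Kiss1 share the columns with the highest values (0.83 to 0.85 for the arcuate and ventromedial lists), while Tac3 has -0.16 and -0.10 in these rows.

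The genes whose levels were most like those of each member over the 65 libraries were ranked by r among 17234 genes with a mean of at least 1 CPM. Nearest to Ghrh were the transcription factor genes Sox14 (r = 0.88) and Nkx2-4 (0.87), followed by Kiss1 itself (0.86). For Kiss1 they were Sox14 (0.90), Ghrh (0.86) and the neuromedin U receptor gene Nmur2 (0.86). Gnrh1 was nearest to Nts, encoding neurotensin (0.70), Sparc (0.69) and Map3k15 (0.69), and Sst to Tusc3 (0.68), Jazf1 (0.68) and Nat14 (0.67). Tac3 was nearest to Evl (0.67), Rpp25 (0.66) and Mrps27 (0.65). Sstr1 was nearest to Tmem200a (0.75), Gnaz (0.75) and Tollip (0.73), and Sstr2 to Tmem59l (0.76), Ywhag (0.75) and Tmem150c (0.75). These r values are descriptions chosen as the highest of many, from libraries that share their depth and dissection.

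Further genes of the growth axis were taken from a list of 20, of which 19 passed the filter on low counts. In RYGB vs. sham 4 rose, 0 fell and 15 did not pass, with a median of 0.32 against -0.02 over all genes tested and 13% of all genes called. Those that rose were Stat5b (0.97 ± 0.19, edgeR adjusted p = 0.00192) and Stat5a (0.46 ± 0.15, adjusted p = 0.034), the transducers of the growth hormone receptor, Igf1r, the receptor of insulin-like growth factor 1 (0.32 ± 0.10, adjusted p = 0.0258), and Igfbp5, a binding protein of that factor (1.29 ± 0.42, adjusted p = 0.033). Stat5b had a median of 31.2 CPM in RYGB- and 15.1 CPM in sham-treated animals of batch A. In batch B the medians were 27.4 and 10.9 CPM. None of the 4 was called against saline, where Stat5b gave 0.38 ± 0.21 and Igfbp5 0.47 ± 0.45. Within batches A and B the 4 genes gave 0.95 and 1.23 for Stat5b, 0.55 and 0.60 for Stat5a, 0.27 and 0.38 for Igf1r, and 0.65 and 2.49 for Igfbp5. Leaving out 1 animal of both groups at a time, the call was kept in 25 of 25 fits for Stat5b, 24 for Igf1r (lost without sham replicate 5), 17 for Stat5a and 15 for Igfbp5. The ghrelin receptor gene Ghsr gave 0.66 ± 0.52 (edgeR adjusted p = 0.411). The other somatostatin receptor genes gave -0.19 ± 0.23 for Sstr3, 0.40 ± 0.35 for Sstr4 and 0.26 ± 0.59 for Sstr5, and the related peptide gene Cort -0.07 ± 0.82, with edgeR adjusted p between 0.457 and 0.964. Ghrhr, encoding the receptor for GHRH, is a pituitary gene and did not pass the filter. It was at 0 in 36 of the 65 libraries, and its highest value of 79.4 CPM was in BWM replicate 5, the library with the highest level of pituitary markers. Gh1 was called in BWM vs. sham (10.65 ± 1.85, edgeR adjusted p = 0.00138) and RYGB vs. BWM (-11.94 ± 1.90, adjusted p = 0.000155), and without that 1 library the values were 3.94 (adjusted p = 0.3) and -5.10 (adjusted p = 0.462), with no call.

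All 20 genes of the reproductive list passed the filter. In RYGB vs. sham 3 rose, 1 fell and 16 did not pass. The median was 0.20 against -0.02 over all genes tested, of which 13% were called. Tacr3, encoding the neurokinin B receptor, rose by 1.54 ± 0.29 (edgeR adjusted p = 0.00115). Over both batches together its median was 2.30 CPM (1.04 to 5.26) in sham- and 7.60 CPM (2.94 to 15.5) in RYGB-treated animals. Leaving out any 1 animal of both groups kept its call, with values from 1.42 to 1.66. Its ligand Tac3 was -0.40 ± 0.26 in the same comparison. Pgr, encoding the progesterone receptor, rose by 1.53 ± 0.28 (edgeR adjusted p = 0.00113). In batches A and B alone the values were 1.62 and 1.70 for Tacr3, and 1.66 and 1.47 for Pgr. Against saline the same genes gave 0.52 ± 0.30 for Tacr3 and 0.20 ± 0.30 for Pgr, neither of them called. Nsmf, linked to the migration of GnRH neurons, fell by 0.82 on the log2 scale (SE 0.25, edgeR adjusted p = 0.0218), which rested on sham replicate 2 with 1400 CPM against 775 CPM in the next sham-treated animal, and without it was -0.39 (adjusted p = 0.244). In batch A alone it was -1.34 and in batch B alone -0.05. The kisspeptin receptor gene Kiss1r was 0.44 ± 0.25 (edgeR adjusted p = 0.243) and Pdyn, encoding the dynorphin of KNDy cells, -0.21 ± 0.32 (adjusted p = 0.688). In BWM vs. sham 0 of 20 were called by edgeR, where 0.320% of all genes were called. Gnrhr, a pituitary receptor gene, was called in RYGB vs. BWM (-4.82 ± 0.99, edgeR adjusted p = 0.00791), with 16.7 CPM in BWM replicate 5 against at most 0.176 CPM in the other BWM animals, and without that library the difference was 0.03. In the hormone comparisons 0 of the 39 tested genes of both lists were called by edgeR, where the share of all genes called was 0% with liraglutide, 0% with PYY3-36 and 0.00457% with both.

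Between batches 4 of the 19 growth genes were lower in batch B, Igf1r (-0.26 ± 0.08), Igfbp5 (-0.94 ± 0.32), Stat5b (-0.42 ± 0.15) and Gsx1 (-0.93 ± 0.38), a transcription factor gene needed for Ghrh neurons. Of the 20 reproductive genes Tac1, encoding substance P and neurokinin A, was higher (0.93 ± 0.29), and Chd7 (-0.43 ± 0.09) and Pgr (-0.68 ± 0.21) were lower. The edgeR adjusted p of these 7 genes lay between 0.000118 and 0.0431, and 40.7% of all genes tested were called.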

How the data were processed

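Poly-A RNA of whole hypothalamus was sequenced by the authors as single 75 nt strand-specific reads, trimmed with cutadapt (1.16 in the submitters' processing notes), aligned to Rnor_6.0 with STAR 2.7.2b and summed over exons with featureCounts 1.6.4. The deposited values are estimated counts per gene, since reads with several places were split by the authors into fractions, and 30.3% of the values above 0 were not whole (tolerance 1e-06). Counts were rounded here. A quasi-likelihood model with group and batch was fitted to all 65 libraries in edgeR 4.0.16 (R 4.3.3) with TMM scaling and filterByExpr (minimum count 10, minimum total 15), which left 21871 genes. P-values were adjusted by Benjamini-Hochberg over these genes, and the SE is the fold change divided by the root of F. The fit was tested on simulated data. DESeq2 1.42.0, other scaling, filters, batches, controls and left-out animals were tried.

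Correlations used log2(CPM + 1) after subtracting the mean of each group within each batch, with 100000 permutations within these groups (numpy 2.4.6), and Benjamini-Hochberg adjustment over 21 pairs or 84 tests against marker lists. The genes, the lists and the marker sets were chosen with earlier results of these data known. Named genes were the 7 members, list genes that passed the test or have a set role, and the 3 genes most like each member. Of 168 pairs of libraries of a group within a batch, 0 held identical values. Labels give 1 library per animal. Some genes of the lists are counted but not reported here by name.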

Additional observations from a re-analysis of the deposited data

Results flagged for a closer look

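In 63 groups of 4 to 7 animals within a batch (1 gene in 1 group each), 8 held an animal whose gap to its nearest neighbour passed Dixon's limit. Chance gives about 5% of such groups where levels are normally distributed. The levels were used without a log scale and differed up to 108 times between libraries (Ghrh), so the 8 cannot be judged against that share. Ghrh was at 8.75 CPM in sham replicate 7, against 2.72 CPM in the next of 6 animals. Sst was at 75.3 CPM in PYY3-36 replicate 2, against 115 CPM in the next of 4. Gnrh1 was at 18.8 CPM in BWM replicate 2, against 8.31 CPM in the next of 7, and Kiss1 at 3.56 CPM in BWM replicate 6, against 1.16 CPM. Kiss1 was at 1.32 CPM in PYY3-36 + liraglutide replicate 9, against 0.174 CPM in the next of 5. Tac3 was at 88.0 CPM in lean replicate 5, against 39.7 CPM in the next of 6. Sstr2 was at 5.97 CPM in saline replicate 8, against 13.6 CPM in the next of 5, and at 11.4 CPM in PYY3-36 + liraglutide replicate 2, against 9.21 CPM in the next of 5. None of these animals was left out of the values reported.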

How the results depend on the processing

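In RYGB vs. sham, 1 of the 7 genes (Sstr1) was called, and 0 were called with saline as the control, in batch A alone, in batch B alone, with the replicate number as a block, with the ventromedial score as a covariate (chosen after seeing the data) and with an absolute log2 fold change over 1 required as well. Without the batch term 2 were called, Sstr1 and Tac3. Leaving out 1 animal at a time gave 0 to 1. In PYY3-36 vs. saline, 0 were called, and 2 (Sst and Gnrh1) with sham as the control. Of the 21 pairs, 2 were called, 4 at a pseudocount of 0.1 (Ghrh with Gnrh1 and Gnrh1 with Kiss1 added) and 1 in batch B alone. Gnrhr in RYGB vs. BWM changed sign, from -4.82 to 0.12 with DESeq2 and to 0.03 without BWM replicate 5, and with 1 animal left out ran from -5.08 to 0.03. Where not given, the cause was not tested.

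Of 483 differences of the 7 genes under other settings, 475 kept their side of the threshold. No called difference turned, and 49 uncalled ones changed sign. Of 1001 with 1 animal left out, 1000 kept their side and 41 uncalled ones changed sign. Most of these differences were not called in the main fit, so keeping their side says little about stability. The number of all genes called in RYGB vs. sham was 2853, against 1 with saline as the control, 5587 without the batch term, 1618 with the replicate block, 529 in batch A alone, 1562 with the covariate and 1470 to 4938 with 1 animal left out. With sham as the control, 1826 genes were called for PYY3-36 and 3220 for PYY3-36 + liraglutide, against 0 and 1 with saline, and without the batch term 2183 were called in BWM vs. sham, against 70, and 2339 in lean vs. sham, against 0. DESeq2 called 237 in BWM vs. sham, 29 in lean vs. sham, 9 in PYY3-36 + liraglutide vs. saline and 28 in sham vs. saline, against 70, 0, 1 and 3. In RYGB vs. BWM 75 were called, against 0 with the replicate block and 13 in batch A alone.

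Deviations of libraries with the same replicate number had a median correlation of 0.02 (171 pairs, -0.55 to 0.63), so that the numbers did not pair the animals. At this depth Kiss1 was at 0 in 10 libraries.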
